A study of Homo sapiens with 8 samples.

Results

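The replication-dependent histone genes are the clustered genes for the linker histone H1 and the core histones H2A, H2B, H3 and H4. They were taken as the protein-coding genes of GENCODE 29 (GRCh38) whose older symbol begins with HIST1H, HIST2H, HIST3H or HIST4H, which gave 71 genes, namely 6 of H1, 17 of H2A, 18 of H2B, 15 of H3 and 15 of H4. The tables of both cell lines together listed 27776 genes, and 55 of these were clustered histone genes. In 769-P, 41 of the 25431 listed genes belonged to the family, and 25 of them had a mean value of 1 or more and were tested beside 22391 genes in all. In CAKI-1, 50 of the 24190 listed genes belonged to it, and 40 were tested beside 21347 genes in all. Of the 41 members tested in either line, 24 were tested in both. The choice rested on names and on the mean over all libraries of a line, and it was made with earlier results of these data known. A low member could pass through the group where it was high. HIST2H2BF did so in 769-P, with a mean of 0 with BCAA and 6.79 without.

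769-P and CAKI-1 are established human renal cell carcinoma (RCC) lines, which the labels describe as clear cell renal cell carcinoma cells. The data asked how their transcripts respond to the branched-chain amino acids (BCAA) isoleucine, leucine and valine. Both lines were kept for 16 hours either with BCAA, with leucine and isoleucine at 0.38 mM each and valine at 0.17 mM, or without them, in a medium that the methods describe as prepared without BCAA and with dialyzed serum. Each of the 4 groups held 2 RNA-seq libraries, 8 in all, which is fewer than the legend of the study gives for its RNA-seq data. The study describes its in vitro work in general as independent experiments, but neither the labels nor the sequencing methods say that the 2 libraries came from separate cultures, so p-values measure the spread between libraries, which may be technical. With 2 libraries against 2, an exact permutation test of a single value cannot give a two-sided p below 0.333, so calls rest on limma's moderated test fitted across all genes. The values are reads per gene divided by a size factor of the library. They are not divided by gene length, and each line was scaled on its own, so levels are compared within a line.

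Clustered histone genes supply the histones that package newly copied DNA, and their transcripts normally build up in S phase and are cleared when replication ends. Unlike other mRNAs of animal cells, theirs usually end in a conserved stem-loop instead of a poly(A) tail. SLBP binds the stem-loop, the U7 snRNP directs the cut behind it, and NPAT, activated by cyclin E with CDK2, drives transcription at the gene clusters. Some members can also use a poly(A) signal further downstream, which gives longer, polyadenylated transcripts outside S phase.

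The stem-loop was read from the GENCODE 29 transcripts, since it is the element that sets these mRNAs apart from other mRNAs. The letters searched were GGNNNTTTTNANNNCC, on the transcript strand, within 150 bases after the stop codon. Of 36 members whose annotated transcript had enough bases after the stop codon, 31 (86.1%) held it, against 27 of 19359 other protein-coding genes (0.139%). The remaining members were mostly annotated only as far as their stop codon, which was so for 35 of the 71 genes. The 5 forms found are printed below with the 6 bases of each side of the stem in capitals and the 4 bases of the loop in lower case.
Shared form of H2A, H2B and H3 genes: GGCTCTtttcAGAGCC
Form with a changed loop in H2B and H3 genes: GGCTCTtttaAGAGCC
Main form of H4 genes: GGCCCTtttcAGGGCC
Form with a changed loop in H4 genes: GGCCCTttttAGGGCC
Form of HIST1H2AG: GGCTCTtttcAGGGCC
In the order printed, the forms stood in 17, 5, 5, 3 and 1 members. Every H4 gene with a match carried a form printed for H4, and 4 of the 5 genes called below for their response to BCAA carried the first, the other being HIST2H2AC, which is annotated only as far as its stop codon. HIST2H2BE has it at chr1:149886188-149886203 on the minus strand, HIST2H2BF at chr1:149811885-149811900 on the minus strand, HIST3H2A at chr1:228457369-228457384 on the minus strand and HIST1H2AC at chr6:26124669-26124684 on the plus strand. In the longest annotated transcript, 1729 bases follow the stem-loop in HIST2H2BE, 1479 in HIST2H2BF, 390 in HIST3H2A and 1128 in HIST1H2AC.

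Clustered histone genes were rare among the reads. The libraries held between 30979773 and 64256834 reads on listed genes, of which 1113 to 1858 per 769-P library and 3401 to 5030 per CAKI-1 library fell on the family. That is 28.5 to 31.1 per 1000000 reads in 769-P and 94.5 to 120 in CAKI-1. A few genes carried most of them. The 5 members with most reads held 71.9% of the family's reads in 769-P (HIST1H2BK, HIST1H2AC, HIST1H1C, HIST1H2BD and HIST1H2BN) and 80.3% in CAKI-1 (HIST1H2AC, HIST1H1C, HIST1H2BK, HIST2H2BE and HIST1H2BD). At the other end, 14 of the listed members in 769-P and 11 in CAKI-1 had 3 reads or fewer in every library, and 30 and 21 members were not listed at all.

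Per kilobase of annotated exon, HIST1H2BK stood highest in both lines, at a mean of 825 in 769-P and 1276 in CAKI-1. It encodes an H2B, and 74.1% of its 50-base windows also occur in H2BFS, so its reads could be split or dropped. In 769-P, HIST1H1C (348), HIST1H2AC (167), HIST1H2BD (136) and HIST1H4C (78.5) came next. In CAKI-1 the next were HIST1H2AC (960), HIST1H1C (789), HIST1H2BD (430), HIST3H2A (321) and HIST2H2BE (205). These levels depend on the annotated exon length, which is 381 bases for HIST1H2BK and 1668 for HIST1H2AC. HIST1H2BK is annotated only as far as its stop codon. The members with a long annotated 3′ end, over 150 bases past the stop codon, were 25 of 71. Of these 25, 5 reached a mean value of 50 in 769-P against 2 of the 46 others, with 7 and 2 in CAKI-1. Those values are not divided by length. Per kilobase, the median over tested members was 13.4 with a long end and 14.5 without in 769-P. In CAKI-1 these medians were 14.9 and 8.65. How the libraries were selected for poly(A) tails is not given in the sources used here. RNAs that lack a poly(A) tail were at or near 0, with RN7SK, RMRP, RPPH1, RNU7-1 and SCARNA2 not listed in either line and RN7SL1 at 5 to 25 reads per library. The part of RNA selection in the low histone levels was not tested.

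**Figure D1:**
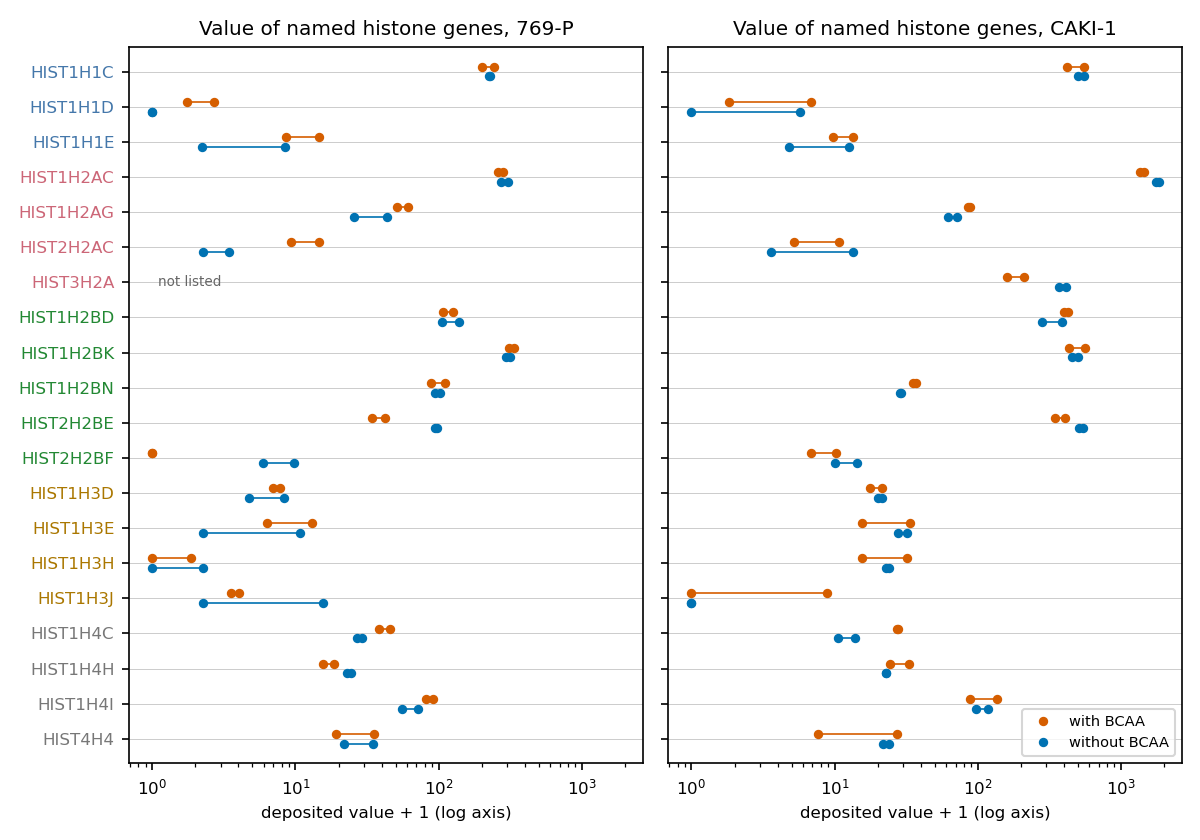
Values of the 20 named clustered histone genes in each library (points; a line joins the 2 libraries of a group), as deposited value + 1 on a log axis, with BCAA in orange and without in blue; gene names are coloured by histone type. HIST2H2BE, HIST3H2A and HIST1H2AC show separated groups in CAKI-1, HIST2H2BE and HIST2H2BF lie lower with BCAA in 769-P, and HIST2H2AC lies higher with BCAA there.

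In 769-P, 1 clustered histone gene rose with BCAA and 2 fell, all of them in the histone cluster of chromosome 1. HIST2H2AC rose from a mean of 1.84 to 11, HIST2H2BE fell from 94.9 to 37.1, and HIST2H2BF fell from 6.79 to 0. The members with the highest values, HIST1H2BK, HIST1H2AC, HIST1H1C and HIST1H2BD, were not called. These 3 of 25 members compare with 38.4% of all genes tested, with 20.3% of all genes called higher and 18.2% called lower. Calls depend on level, and among genes with a mean value of 1 to 10 the share was 4.02% (2 of 11 members), among those of 10 to 100 it was 21% (1 of 10 members), and among those of 100 or more it was 63% (0 of 4 members). In these cultured cells, a change in the share of cells in S phase and a change in histone mRNA per cell cannot be told apart.

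HIST2H2BE (ENSG00000184678, chr1:149884459-149886652, minus strand, 1 exon) encodes an H2B. In 769-P it had 54 and 39 reads with BCAA and 75 and 79 reads without, which are values of 40.9 and 33.4 against 93.2 and 96.6. Both libraries with BCAA lay far below both without, although they were the deeper ones. The log2 fold change on the log2(value + 1) scale was -1.34 ± 0.27 (SE; limma, adjusted p = 0.0018), and the ratio of size-corrected reads was 0.394 with an exact 95% interval of 0.301 to 0.513 that covers counting error only.

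HIST2H2AC (ENSG00000184260, chr1:149886975-149887364, plus strand) encodes an H2A and is annotated without untranslated ends. Its reads in 769-P were 11 and 16 with BCAA and 1 and 2 without, or values of 8.34 and 13.7 against 1.24 and 2.45. The groups did not overlap, but the lower group stood at 3 reads over both libraries. The log2 fold change was 2.07 ± 0.70 (limma, adjusted p = 0.035), and the ratio of 5.87 had a counting interval of 1.81 to 30.2. The call was absent in edgeR and in DESeq2 on the recovered reads, and 30.5% of its 50-base windows are shared, most with HIST2H2AA3.

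HIST2H2BF (ENSG00000203814, chr1:149782689-149812373, minus strand) encodes another H2B, and its exons overlap those of FCGR1A. It had no read in either 769-P library with BCAA and 7 and 4 reads in the other 2. Counting 3 reads over the group with BCAA as the floor, it was at least 5.62-fold lower with BCAA. The adjusted p was 0.016 in limma and 0.02 in edgeR, and DESeq2 gave it no adjusted p.

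Most calls in 769-P were lost on 3 libraries. With any one library left out, HIST2H2BE had a log2 fold change of -1.48 to -1.19 at an adjusted p of 0.07 to 0.101, HIST2H2AC one of 1.75 to 2.40 at 0.103 to 0.161, and HIST2H2BF one of -3.28 to -2.56, called only without the second library without BCAA (adjusted p = 0.0496, all limma). Among all genes, 8.18% to 13.3% were called on 3 libraries.

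Of all 25 members tested in 769-P, the 3 called ones included, 11 had both libraries with BCAA above both without, where 33.6% of all genes did, and 4 had both below, where 33.5% did. HIST1H2BH, at 8 and 10 reads with BCAA and 2 and 0 without, had an adjusted p of 0.068, and HIST1H3B, at 12 and 4 against 1 and 0, had 0.073. The members at a mean under 10, 27 of the 41 listed, summed to 69.8 and 93.2 with BCAA and to 36 and 55 without. These sums did not overlap, with a ratio of 1.79, but they rest on 92 and 109 reads against 29 and 45 and on 4.66% of the family's reads. The 14 members at 10 or more summed to a ratio of 0.995. In CAKI-1, 10 of 40 members had both libraries with BCAA above both without, where 28.9% of all genes did. There 4 had both below, where 28.8% of all genes did. The ratios of the sums in CAKI-1 were 1.3 for members at a mean under 10 and 0.86 for those at 10 or more.

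In CAKI-1, 3 clustered histone genes fell with BCAA and none rose. HIST3H2A fell from a mean of 389 to 185, HIST2H2BE from 523 to 376 and HIST1H2AC from 1799 to 1403. They were among the 7 members at a mean value of 100 or more, where 34.2% of all genes were called. Over all levels, 19.9% of the genes tested in CAKI-1 were called, 10.8% higher and 9.05% lower. None of the 33 members below a mean of 100 was called, where 0.707% of all genes at 1 to 10 and 4.93% of those at 10 to 100 were. Without adjustment, 3 members were higher at a p under 0.05 in limma, namely HIST1H4C, HIST1H3B and HIST1H3F, and edgeR called no member higher. DESeq2 gave an adjusted p to 9 of the 40 members, these 3 not among them, and called none of the 9 higher.

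HIST3H2A (ENSG00000181218, chr1:228456979-228457873, minus strand) encodes an H2A and lies in the small cluster further along chromosome 1. It had 164 and 252 reads with BCAA and 387 and 319 without, or values of 160 and 210 against 368 and 411. The groups were far apart, at a log2 fold change of -1.08 ± 0.16 (limma, adjusted p = 0.00065). In 769-P the gene was not listed.

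HIST1H2AC (ENSG00000180573, chr6:26124145-26139116, plus strand), an H2A gene with a spliced and a long annotated transcript, was the most abundant member by reads in CAKI-1. Its values were 1359 and 1448 with BCAA and 1833 and 1764 without, from 1397, 1740, 1929 and 1371 reads. The reads alone overlap between groups, and the groups separate once the library depth is divided out. The log2 fold change was -0.36 ± 0.07 (limma, adjusted p = 0.0047). In 769-P its values were 259 and 280 against 272 and 306, which overlap, with a log2 fold change of -0.10 ± 0.13 and an adjusted p of 0.61.

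HIST2H2BE in CAKI-1 had values of 347 and 404 with BCAA and 541 and 504 without. Again the groups did not overlap, with a log2 fold change of -0.48 ± 0.12 (limma, adjusted p = 0.013). With the spread taken from all 8 libraries the adjusted p was 0.065. HIST2H2BE was thus the one member called in both lines and in the same direction. The calls in CAKI-1 need all 4 libraries, since none of the 21347 genes was called by limma when any one library was left out. The log2 fold change was then -1.28 to -0.89 for HIST3H2A (adjusted p 0.073 to 0.239), -0.59 to -0.37 for HIST2H2BE (0.1 to 0.269) and -0.40 to -0.31 for HIST1H2AC (0.086 to 0.231).

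The BCAA effect differed between the lines for 1 of the 24 members tested in both, against 21.1% of the 19406 genes tested in both, with 10.9% further up and 10.1% further down in 769-P. For HIST2H2BE the effect in 769-P minus that in CAKI-1 was -0.86 ± 0.25 on the log2 scale (limma interaction, adjusted p = 0.026), that is, the fall was larger in 769-P. With any one library left out the difference was -1.0 to -0.71, and it stayed called without the first 769-P library with BCAA, the first without BCAA or the first CAKI-1 library with BCAA (adjusted p = 0.018, 0.049 and 0.035), and was not called without each of the other 5 (0.061 to 0.094). For HIST2H2AC the difference was 1.97 with a 95% interval of -0.35 to 4.28 (adjusted p = 0.23), and in CAKI-1 its 10 and 5 reads with BCAA overlapped the 13 and 2 without. For HIST2H2BF it was -2.40 with an interval of -4.46 to -0.34 (adjusted p = 0.096). HIST1H2AC was called in CAKI-1 alone, and the difference of its effect, 0.26, had an interval of -0.03 to 0.55.

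**Figure D2:**
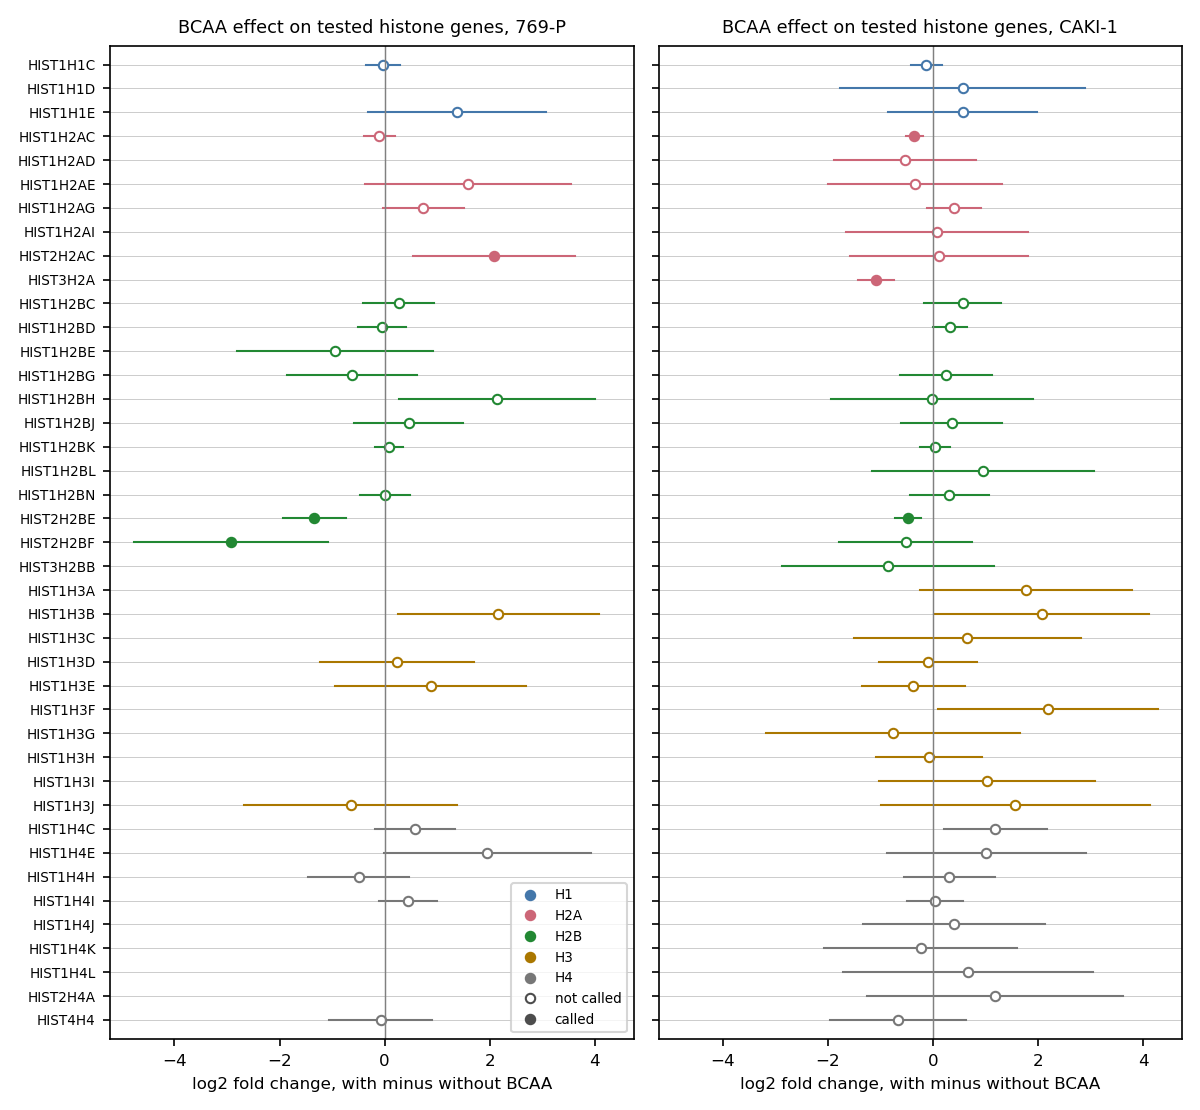
Log2 fold change with minus without BCAA for every tested clustered histone gene, by histone type (colour), with its 95% interval from limma; filled points were called at an adjusted p of 0.05. In 769-P, 3 of 25 points are filled and in CAKI-1 3 of 40, and the interval stays within 2-fold either way for 6 and 7 members.

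The intervals set what these libraries could show. The 95% interval of the fold change stayed within 2-fold in both directions for 6 of 25 members in 769-P and for 7 of 40 in CAKI-1. At an unadjusted p under 0.05 there were 5 of 25 members, against 45.4% of all genes in 769-P, and 6 of 40, against 31.5% in CAKI-1. For the other 19 and 33 members, called ones among them, the interval reached past a 2-fold change in at least 1 direction.

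HIST2H2BE and HIST2H2AC, which moved in opposite directions in 769-P, are neighbours that are transcribed away from each other. The 235 bases between their RefSeq start sites, chr1:149886683-149886917 of GRCh38.p14, are printed on the plus strand, which is the strand of HIST2H2AC, because one stretch serves as promoter of both genes. The capitals mark the octamer, at chr1:149886721-149886728, which is the element bound by POU2F1.
HIST2H2BE to HIST2H2AC: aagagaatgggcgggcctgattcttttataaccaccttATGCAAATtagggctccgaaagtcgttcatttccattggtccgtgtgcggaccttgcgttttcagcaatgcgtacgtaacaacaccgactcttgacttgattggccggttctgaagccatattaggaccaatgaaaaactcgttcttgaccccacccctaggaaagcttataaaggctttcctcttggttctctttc
The octamer was searched as ATTTGCAT on both strands in the RefSeq promoters, 250 bases before to 50 after the start, of the 61 members that matched. It stood in 11 of 14 H2A promoters (78.6%), 14 of 18 H2B promoters (77.8%), 1 of 10 H3 promoters, and none of 6 H1 and 13 H4 promoters, while 1.77% of all 35116 promoters held it. Windows of divergent neighbours overlap, so that 1 octamer can count for a pair. CCAAT stood in every H1, H2A, H2B and H3 promoter and in 3 of 13 H4 promoters (all promoters 34.6%), and TATAAA in 3 of 6 H1, 10 of 14 H2A, 12 of 18 H2B, 8 of 10 H3 and 7 of 13 H4 promoters (all promoters 11.5%). A match describes the letters in the window and not a bound site.

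There are 11 such divergent pairs of an H2A and an H2B gene. Both genes were tested in 4 pairs in 769-P and in 6 in CAKI-1, and the signs of the paired fold changes were opposite in 3 and in 3. In 769-P the pair of HIST2H2AC and HIST2H2BE was the one in which both genes were called. In CAKI-1 HIST3H2A fell, while its partner HIST3H2BB, at 1 and 1 reads against 1 and 4, was too low to read. HIST1H2AC fell there, while its partner HIST1H2BC had 42 and 56 reads with BCAA and 35 and 20 without (log2 fold change 0.56, adjusted p = 0.29 in limma). Whether 2 partners differed in their response was not tested.

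**Figure D3:**
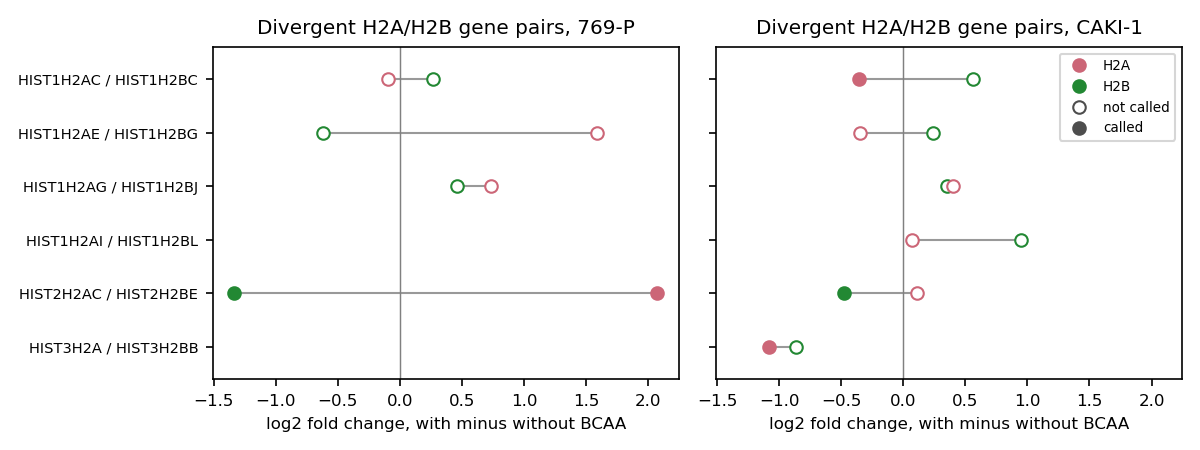
Log2 fold change with minus without BCAA of the H2A gene (red) and the H2B gene (green) of each divergent pair with both genes tested, with filled points for called genes. HIST2H2AC and HIST2H2BE stand at 2.07 and -1.34 in 769-P and at 0.11 and -0.48 in CAKI-1.

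By position, the block of 11 members at chr1:149782689-149887916 held all 3 calls of 769-P among 3 tested members, and 1 call among 4 tested in CAKI-1, beside 38.4% and 19.9% of all genes. The 55 members in the 3 blocks of chromosome 6 gave no call among 21 tested in 769-P and 1, HIST1H2AC, among 33 tested in CAKI-1. Many of these were low, with 9 of the 21 at a mean value of 1 to 10, 8 at 10 to 100 and 4 at 100 or more, and 18, 10 and 5 of the 33, and the shares of all genes called at these levels were those given above. Whether the blocks differ was not tested. HIST4H4, the single member on chromosome 12, had values of 18.2 and 34.2 with BCAA and 33.5 and 20.8 without in 769-P, and of 26.3 and 6.66 against 20.9 and 23.2 in CAKI-1. Its groups overlapped in both lines.

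The H1 genes, whose products bind the linker DNA between nucleosomes, gave no call. HIST1H1C had values of 199 and 244 with BCAA and 228 and 223 without in 769-P, and 421 and 550 against 555 and 499 in CAKI-1. The groups overlapped in both lines, and the 95% intervals of the log2 fold change, -0.36 to 0.30 and -0.42 to 0.16, leave out a change of 2-fold. HIST1H1E had 10 and 16 reads against 6 and 1 in 769-P and 9 and 15 against 4 and 9 in CAKI-1, and HIST1H1D had 6 and 1 against 5 and 0 in CAKI-1, too few to read.

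Among the H2A genes, HIST1H2AG had values of 59.9 and 50.5 with BCAA and 24.8 and 42.8 without in 769-P. In CAKI-1 they were 87.6 and 84.9 against 70.3 and 60.5. The libraries with BCAA lay above the others in both lines, at log2 fold changes of 0.73 ± 0.35 and 0.40 ± 0.24, yet the adjusted p were 0.13 and 0.29 in limma. Beside them, the called H2A genes HIST1H2AC and HIST3H2A lay below with BCAA in CAKI-1.

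Among the H2B genes, HIST1H2BK had values of 310 and 338 with BCAA and 314 and 295 without in 769-P, and of 433 and 556 against 501 and 454 in CAKI-1. Both pairs of groups overlapped, with intervals of -0.18 to 0.35 and -0.24 to 0.33 on the log2 scale. HIST1H2BD had values of 126 and 107 against 104 and 138 in 769-P, which overlap, and of 427 and 402 against 387 and 282 in CAKI-1, which do not (log2 fold change 0.33 ± 0.15, adjusted p = 0.16 in limma). HIST1H2BN, whose exons overlap those of HIST1H2AK and HIST1H2AL, had values of 109 and 88.1 against 102 and 92.9 in 769-P.

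The H3 genes were low throughout, with mean values from 3.44 to 7.08 in 769-P and from 1.41 to 26.1 in CAKI-1, and none was called. HIST1H3E had 7 and 14 reads against 1 and 8 in 769-P and 15 and 39 against 28 and 24 in CAKI-1. HIST1H3D had 9 and 7 reads against 3 and 6 in 769-P, or values of 6.82 and 5.99 against 3.73 and 7.34, and values of 20.4 and 16.6 against 19 and 20.6 in CAKI-1. The values of both genes overlap between the groups in both lines, and HIST1H3D shares its whole transcript with the overlapping gene AL031777.3. For HIST1H3H, the CAKI-1 reads were 15 and 37 with BCAA and 23 and 18 without it. HIST1H3J, which overlaps HIST1H2AM, had 4 and 3 against 1 and 12 in 769-P. These groups overlap too. In CAKI-1, HIST1H3F had 7 and 2 reads with BCAA and HIST1H3B had 2 and 6, and both had none in the libraries without BCAA (adjusted p = 0.14 and 0.15 in limma).

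The H4 genes gave no call either. HIST1H4C had values of 44.7 and 37.6 with BCAA and 26.1 and 28.1 without in 769-P, and of 26.3 and 26.6 against 9.5 and 12.9 in CAKI-1. In both lines the groups were apart, with log2 fold changes of 0.58 ± 0.35 and 1.19 ± 0.45 and adjusted p of 0.22 and 0.091 in limma, and with the spread taken from all 8 libraries the second was called (adjusted p = 0.041). HIST1H4I had values of 81.1 and 89.8 against 54.7 and 70.9 in 769-P (adjusted p = 0.19) and of 87.6 and 135 against 117 and 96.5 in CAKI-1, where the groups overlap. HIST1H4H lay below in 769-P, at 17.4 and 14.5 against 23.6 and 22, and above in CAKI-1, at 32.1 and 23.3 against 21.9 and 21.9, and was called in neither.

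The median log2 fold change over all tested members was 0.24 in 769-P and 0.27 in CAKI-1, beside -0.02 and -0.01 over all genes. By type it was 0.67 for 2 H1, 1.16 for 4 H2A, -0.02 for 10 H2B, 0.56 for 4 H3 and 0.45 for 5 H4 genes in 769-P. In CAKI-1 it was 0.56 for 3 H1, -0.34 for 7 H2A, 0.24 for 11 H2B, 0.84 for 10 H3 and 0.39 for 9 H4 genes. These medians lean on genes with few reads. With a minimum mean value of 10 they were -0.03 for H1 in 769-P and -0.13 for H1 and -0.10 for H3 in CAKI-1, so that their sign turned, and 0.32 for H2A and 0.19 for H4 in 769-P and 0.17 for H4 in CAKI-1. The pseudocount moved them too, with 2.21 for H3 in CAKI-1 at a pseudocount of 0.1, and 0.28 for H3 and 0.19 for H1 there at 5. On thinned reads H4 had 0.23 in 769-P and 0.065 in CAKI-1, and H1 had 0.33 in CAKI-1.

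Summed over the family, the values were 1448 ± 55.4 with BCAA and 1419 ± 52.3 without in 769-P (SD, n = 2 each), which differ by less than the spread. In CAKI-1 they were 3721 and 4185 with BCAA and 4735 and 4377 without, which do not overlap, at a ratio of 0.868. Most of that gap was H2A, with sums of 1636 and 1758 against 2304 and 2256, while the H1, H2B and H3 sums overlapped between the groups. The H4 sums lay above with BCAA in both lines, at 174 and 180 against 139 and 143 in 769-P and at 193 and 206 against 176 and 166 in CAKI-1. Such a sum follows the few abundant members, and no test was made on it.

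**Figure D4:**
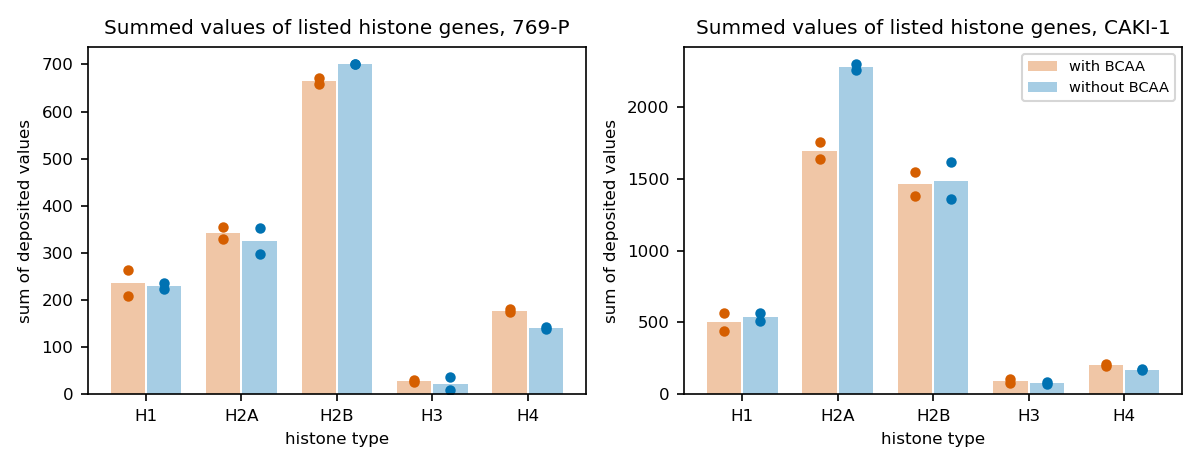
Sum of the deposited values of all listed clustered histone genes by histone type, with bars for the mean and points for the 2 libraries of each group, in orange with BCAA and in blue without. The H2A sum in CAKI-1 is 1697 with BCAA and 2280 without, and the H2B sum in 769-P is 665 and 701.

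Among genes whose products make, process or use these transcripts, more were called higher than lower with BCAA in both lines. Of 26 genes of histone mRNA processing and turnover, 15 rose and 4 fell in 769-P, and 13 rose and 1 fell in CAKI-1. These are 73.1% and 53.8% of the list, called in either direction. The whole list lay at a mean value of 100 or more, where 63% and 34.2% of all genes were called. Over all levels, 20.3% of all genes were called higher and 18.2% lower in 769-P, and 10.8% and 9.05% in CAKI-1. SLBP, the stem-loop binding protein, had values of 6134 and 6253 with BCAA and 4437 and 4557 without in 769-P, and of 3636 and 4038 against 2821 and 2700 in CAKI-1. Its groups were clearly apart, at log2 fold changes of 0.46 and 0.47. LSM10 and LSM11 of the U7 snRNP rose in both lines (0.73 and 0.34 in 769-P, 0.30 and 0.37 in CAKI-1), as did CASP8AP2, which recruits the cleavage factors (0.23 and 0.35). CPSF3, the nuclease, rose in 769-P (0.48) and had 0.07 in CAKI-1, and the exonuclease ERI1 rose in CAKI-1 (0.44) and had 0.14 in 769-P. UPF1, which takes part in the decay of histone mRNA, rose by 0.16 and 0.40. Some of these calls were close to the threshold, and of 12 alternatives without left-out libraries, UPF1 in 769-P lost its call in 4 (adjusted p up to 0.128), LSM10 in CAKI-1 in 5 (up to 0.086), and CASP8AP2 in 1 in 769-P and in 2 in CAKI-1 (up to 0.078 and 0.117). ZNF473, which works with the U7 snRNP, had -0.24 and -0.14 and was not called, and MIF4GD, which helps to translate histone mRNA, fell by 0.37 and 0.81.

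Of 14 genes of histone gene transcription, 8 rose and 2 fell in 769-P, and 4 rose and 1 fell in CAKI-1. The shares, 71.4% and 35.7%, were near the 63% and 34.2% of all genes called at a mean value of 100 or more, where the whole list lay. NPAT, the coactivator of the clusters, had values of 746 and 736 with BCAA and 800 and 690 without in 769-P and of 708 and 607 against 559 and 601 in CAKI-1, and was called in neither. HINFP, the factor of H4 genes, fell in both lines, by 0.91 and 0.41. The cyclin E genes CCNE1 (1.54 and 0.94) and CCNE2 (1.61 and 1.94) and their kinase CDK2 (0.89 and 1.18) rose in both lines, and POU2F1, the octamer factor, rose by 0.27 in 769-P and had 0.09 in CAKI-1.

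Of 24 histone chaperones and chromatin assembly genes, 16 rose and 3 fell in 769-P, and 14 rose and 1 fell in CAKI-1. Of the 22 at a mean value of 100 or more, 86.4% and 68.2% were called, beside the same 63% and 34.2% of all genes. ASF1B, which hands over H3 and H4, rose by 1.75 in 769-P, with values of 3331 and 3178 against 960 and 980, and by 1.88 in CAKI-1, with 1045 and 1102 against 285 and 296. CHAF1A (1.07 and 1.36) and CHAF1B (1.15 and 0.95), subunits of the assembly factor CAF-1, rose too, as did NASP (1.0 and 0.80), which binds soluble histones, and HAT1 (1.06 and 0.81), which acetylates new H4. NAP1L1, a chaperone of H2A and H2B, fell by 0.16 and 0.23, with both calls lost under median centering and quantile normalization (adjusted p up to 0.144 and 0.119).

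The histone genes outside the clusters, most of whose mRNAs are polyadenylated, moved in both directions. Of 12 tested in 769-P, 8 rose and 2 fell, and of 13 in CAKI-1, 5 rose and 2 fell. At a mean value of 100 or more, 10 of 11 were called in 769-P, where 63% of all genes were, and 7 of 12 in CAKI-1, where 34.2% were. H2AFX, the H2A variant phosphorylated at DNA breaks, whose gene can also give a stem-loop mRNA, rose by 1.58 and 1.3, H2AFZ by 0.87 and 1.29, and CENPA, the H3 variant of centromeres, by 1.44 and 1.11. H2AFJ fell by 0.45 and 0.48, but its call in 769-P was lost in 7 of 12 alternatives (adjusted p up to 0.149). The linker histone genes were the other way, with H1FX falling by 0.63 in 769-P (-0.37 in CAKI-1, not called) and H1F0 falling by 0.83 in CAKI-1, while in 769-P H1F0 had 4 reads or fewer per library. H3F3A and H3F3B, which encode H3.3, rose by 0.26 and 0.22 in 769-P and had -0.08 and 0.12 in CAKI-1. The H3F3A call was lost in 3 alternatives (adjusted p up to 0.183), and that of H1F0 in CAKI-1 with the spread taken from all 8 libraries (0.388).

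All 20 listed S phase genes, such as those for the replicative helicase and for nucleotide supply, rose with BCAA in both lines. Their medians were 1.23 and 1.11 on the log2 scale. All 20 lay at a mean value of 100 or more, where 63% of all genes in 769-P and 34.2% in CAKI-1 were called in either direction. Over the clustered histone genes the medians were 0.24 and 0.27, with 1 member called higher in 769-P and none in CAKI-1. The lists differ in level. The median value of the S phase genes was 4414 in 769-P and 1808 in CAKI-1. That of the tested clustered histone genes was 15.5 and 8.51. Of all genes at a mean value of 1 to 10, 4.02% and 0.707% were called, and of those at 10 to 100, 21% and 4.93%. The part of the cell cycle in the histone values was not tested.

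**Figure D5:**
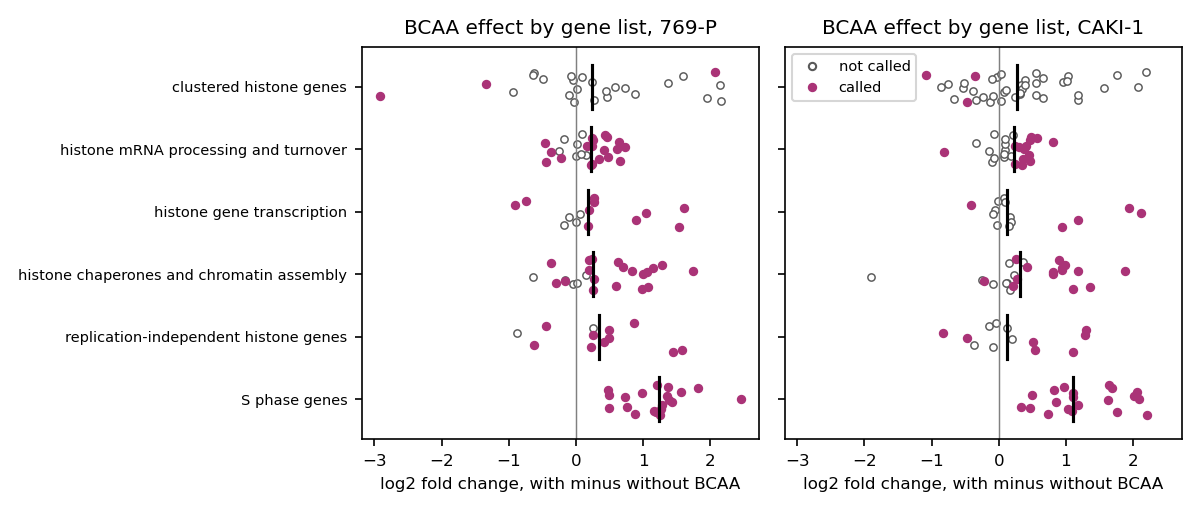
Log2 fold change with minus without BCAA of the tested clustered histone genes and of 5 gene lists, with 1 point per gene, filled where called, and a bar at the median. All 20 S phase genes are called higher in both lines. Of the clustered histone genes, 3 of 25 in 769-P and 3 of 40 in CAKI-1 are called in either direction. Of all genes tested, 38.4% and 19.9% are called, and of those at a mean value of 100 or more, 63% and 34.2%.

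Of 9 renal markers, 7 were above 100 reads in at least 1 library in 769-P and 7 in CAKI-1, with PAX8 at 8345 reads or more in every library. The clear cell markers went against the label in part, since CA9 was not listed in either line and NDUFA4L2 had 1 to 3 reads per library in 769-P, with 91 to 215 in CAKI-1. PAX2 was not listed in CAKI-1. Markers of blood, endothelial and stromal cells were at 12 reads or fewer with the exceptions of COL1A1 and PDGFRB in 769-P and of COL1A1, PDGFRB, DCN and LUM in CAKI-1. Their summed values were 316 to 352 with BCAA and 258 to 268 without in 769-P, and 124820 to 149355 with BCAA and 102298 to 120074 without in CAKI-1, nearly all of it COL1A1. CD3E, CDH5 and HBB were not listed. In 769-P both libraries with BCAA were deeper than both without.

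Near-identical copies limit what counts per gene can show. For 17 members, 50% or more of the 50-base windows also occur in another gene, and 13 of these were not listed in 769-P and 9 in CAKI-1, against 17 and 12 of the other 54. The exons of 15 members overlap another gene. The called members all lie under that cut, from 0.42% in HIST1H2AC to 30.5% in HIST2H2AC, so leaving out the 17 could not remove a call.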

How the data were processed

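RNA of 769-P and CAKI-1 cells with or without BCAA was sequenced, with 2 libraries per group as labelled. The authors deposited 1 table per line of a signal per gene, which is HTSeq counts divided by a size factor of each library. The submitters' processing notes name Trim Galore, TopHat2 2.1.0, SAMtools 1.3.1, HTSeq 0.6.0, DESeq2, DESeq and hg38, and the annotation and the selection of RNA are not given in the sources used here. All values (100%) were whole multiples of 1 read within 0.01 read, so reads were recovered. Genes below 2 reads over the 4 libraries are not listed.

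Symbols came from GENCODE 29. All genes with a mean value of 1 or more were fitted with limma 3.58.1 (trend) on log2(value + 1), which understates changes of low genes, within each line, with Benjamini-Hochberg adjustment at 0.05. The difference between lines was the interaction over all 8 libraries. Recovered reads were also tested with edgeR 4.0.16 and with DESeq2 1.42.0, and other pseudocounts, filters, scalings, thinning to 30979773 reads, a block and left-out libraries served as alternatives. Intervals of read ratios are exact and cover counting error only, with 3 reads as the floor. Named genes were, per type, the 3 members with the highest mean value in each line, the called members, and genes of the lists of histone supply. Some further members, such as HIST1H2BH, HIST1H3B and HIST1H3F, were named after their values were seen. The members and lists were chosen with earlier results of these data known. The limma fit within each line, and no other test, was also run on simulated reads. Changes were planted there only in genes well above the minimum mean value.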

Additional observations from a re-analysis of the deposited data

Results flagged for a closer look

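The BCAA effect of 1 clustered histone gene differed between the lines by the interaction term of limma. For HIST2H2BE the effect in 769-P minus that in CAKI-1 was -0.86 (log2 scale, adjusted p = 0.026), with a fall in both lines.

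Among the genes of histone supply named above, 6 differed in the same test. Over the whole lists, 4 of 26 processing and turnover genes were called further up in 769-P and 3 further down. The counts were 1 and 2 of 14 for transcription, 3 and 5 of 24 for chaperones, and 0 and 1 of 12 for histone genes outside the clusters. Of all genes tested in both lines, 10.9% were called further up in 769-P and 10.1% further down. CCNE1 rose in both lines and by 0.60 more in 769-P (adjusted p = 0.011). CPSF3 had an effect 0.41 higher in 769-P (adjusted p = 0.0017) and LSM10 one 0.43 higher (adjusted p = 0.019). H2AFZ rose in both lines, with a difference of -0.42 (adjusted p = 0.0017), that is, by more in CAKI-1. ERI1 had a difference of -0.30 (adjusted p = 0.035) and UPF1 one of -0.24 (adjusted p = 0.042). Each of these 2 calls was lost in 4 of 11 alternatives, at an adjusted p of up to 0.066 for ERI1 and 0.079 for UPF1, and in 5 and 6 of 8 fits without 1 library, and the LSM10 call in 4 of 8.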

How the results depend on the processing

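Counts of called members changed with the following settings. In 769-P the count higher, 1 in limma, was 0 with a pseudocount of 0.1, without a filter on low values, with a minimum mean value of 10, on thinned reads, in edgeR and in DESeq2, and the count lower, 2, was 1 with a minimum mean value of 10 and 1 in DESeq2. In CAKI-1 the spread taken from all 8 libraries gave 1 member higher (HIST1H4C) in place of 0 and 1 lower (HIST1H2AC) in place of 3, and a minimum fold of 1.5 left 1 lower. The count of members differing between lines, 1, was 2 with a pseudocount of 0.1 and 2 in edgeR, which added HIST2H2BF. The minimum of 10 removes HIST2H2AC and HIST2H2BF from the test, the fit over 8 libraries holds 24 of the 40 CAKI-1 members and not HIST3H2A, which is not listed in 769-P, and DESeq2 gave no adjusted p to 6 of 25 members in 769-P, HIST2H2BF among them, and to 31 of 40 in CAKI-1. Elsewhere the cause was not tested. When libraries were left out one at a time, the counts were 0 to 0 higher and 0 to 1 lower in 769-P, 0 to 0 lower in CAKI-1, and 0 to 1 for the difference. Of the named genes of the lists, 5 of 25 calls in 769-P and 4 of 22 in CAKI-1 were lost under some other alternative, and 12 and 22 under some left-out library.

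Same-numbered libraries of the groups deviated together with correlations of 0.0095 in 769-P and 0.021 in CAKI-1 over all tested genes. Over genes at a mean value of 100 or more the correlations were -0.088 and 0.061. With 2 libraries per group, such correlations cannot decide whether the replicate number marks pairs. With the replicate number as a block, 2 members were higher in 769-P (HIST1H2BH and HIST2H2AC), 2 lower there, 3 lower in CAKI-1 and 1 differed.

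Signs turned only for genes in a line in which they were not called. By setting, these were HIST1H1C (0.0075) and NPAT (0.037) in 769-P under median centering, NPAT under TMM factors (0.021) and in edgeR (0.015), HIST4H4 in 769-P (0.042) and HIST1H3H in CAKI-1 (0.016) under quantile normalization, HIST1H3H (0.018) and HIST2H2AC (-0.19) in CAKI-1 in edgeR, and HIST1H3D (0.017) and HIST1H4H (-0.047) in CAKI-1 on thinned reads. With a library left out, the log2 fold changes in 769-P ran from -2.15 to 0.41 for H1F0, -0.18 to 0.11 for HIST1H1C, -0.25 to 0.15 for HIST1H2BD, -0.14 to 0.16 for HIST1H2BN, -0.17 to 0.65 for HIST1H3D, -0.25 to 2.01 for HIST1H3E, -2.05 to 0.76 for HIST1H3J, -0.51 to 0.36 for HIST4H4 and -0.11 to 0.10 for NPAT. In CAKI-1 they ran from -0.32 to 0.063 for HIST1H1C, -0.70 to 1.82 for HIST1H1D, -0.13 to 1.26 for HIST1H1E, -0.14 to 0.22 for HIST1H2BK, -0.24 to 0.044 for HIST1H3D, -0.93 to 0.17 for HIST1H3E, -0.59 to 0.44 for HIST1H3H, -0.28 to 0.34 for HIST1H4I, -0.84 to 1.06 for HIST2H2AC, -1.59 to 0.25 for HIST4H4 and -0.036 to 0.23 for POU2F1. With a library left out, 1 library stands for its group and is taken to vary like the others. The median over all genes moved by at most 0.041 under another scaling.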

Other observations

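Of the 24 clustered histone genes tested in both lines, 5 had size-corrected values in which the pair of BCAA libraries lay higher than the pair without, in 769-P and in CAKI-1 alike. The same order held for 18.5% of all 19406 genes. The opposite order in both lines held for 1 of the 24, HIST2H2BE, and for 16.2% of all genes. The 5 were HIST1H2AG, HIST1H2BC, HIST1H3B, HIST1H4C and HIST1H4E, singled out after their values were seen, and limma called none of them in either line. HIST1H2BC, an H2B gene, had size-corrected values of 47.8 and 49.6 with BCAA and 46.0 and 35.5 without it in 769-P. In CAKI-1 its values were 40.9 and 46.6 with BCAA and 33.3 and 25.7 without it. HIST1H4E, an H4 gene, was close to the detection limit, with 11 and 3 reads against 0 and 1 in 769-P and 6 and 2 against 1 and 1 in CAKI-1.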
